A study of Mus musculus with 6 samples.

Results

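The genes described here are the histone genes whose symbols begin with Hist1h to Hist4h, H2af, H3f3 or H1f in the deposited tables. That rule found 25 of the 30803 rows, of which 9 carry an older Hist symbol and 16 carry an H3f3 or H1f symbol, and no row begins with H2af. The tables use newer symbols for most of the family, so a further 71 histone rows (H2ac, H2bc, H3c, H4c, H2az1, H2ax and others) fall outside the rule and are given separately below. The cells, given in the labels as hematopoietic stem cells from bone marrow, came from WT mice aged 5 months and were sorted into an MHCII-hi and an MHCII-lo fraction. MHC class II molecules on the cell surface present peptides to helper T cells. Each fraction has 3 poly(A) RNA-seq libraries. The sample titles mark all 6 libraries as Ctrl and the labels name no treatment, and the sources used here state neither the gate's markers nor whether the libraries of a fraction came from separate animals. The p-values thus measure only how these libraries vary, and that variation may be technical. The values are read as FPKM (sequenced fragments for each kilobase of a transcript, relative to the size of the library), and the read depth is unknown.

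Nucleosomes are built from the core histones H2A, H2B, H3 and H4, and linker histones (H1) bind the DNA between them. Most core histone genes lie in clusters, have no introns and are transcribed in S phase, when DNA is copied. Their mRNA normally ends in a stem-loop, bound by the stem-loop binding protein SLBP, in place of a poly(A) tail, so a poly(A) library captures these transcripts poorly. Replacement histones such as H3.3 are made through the whole cell cycle from genes with introns and poly(A) tails, and are put into chromatin outside DNA replication, for example where genes are transcribed. In dividing marrow progenitors the S phase genes are active, while cells that have left the cycle rely on the replacement forms.

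The fractions held transcripts of other cell types. All 13 tested B cell markers of 15 listed rose in MHCII-hi, and their summed level over the 15 was 250.7 to 260.1 FPKM in MHCII-hi libraries and 31.1 to 34.2 FPKM in MHCII-lo libraries. Of 12 plasma cell markers 11 rose, with sums of 9003 to 9156 FPKM in MHCII-hi and 458.7 to 522.3 FPKM in MHCII-lo. Of 14 neutrophil markers 9 rose and 4 (Mpo, Elane, Ctsg, Prtn3) fell, with sums of 23310 to 23620 FPKM in MHCII-hi and 17340 to 17400 FPKM in MHCII-lo. Of 15 erythroid markers 14 fell, with sums of 776.9 to 800.7 FPKM in MHCII-hi and 1121 to 1144 FPKM in MHCII-lo. Of 14 genes listed for stem cells 9 were tested, 6 rose and 1 (Cd48) fell, with sums of 178.9 to 186.6 FPKM in MHCII-hi and 172.9 to 175.9 FPKM in MHCII-lo. Cd48 is a gene that stem cells are sorted to lack. It was the largest part of these sums, at 93.06 FPKM in MHCII-hi and 120.7 FPKM in MHCII-lo, so the sums do not compare stem cell markers. The defining stem cell markers Slamf1, Mecom, Hoxb5 and Fgd5 were under 0.5 FPKM in every library. Total FPKM was 333347 to 333530 in MHCII-hi and 305934 to 306945 in MHCII-lo. In bulk samples, fewer cells of a type and less RNA per cell cannot be told apart. The part of cell makeup in the histone results was not tested.

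In MHCII-hi, transcripts of both genes for H3.3 were lower, H3f3a at 0.632 and H3f3b at 0.857 of the MHCII-lo mean, and so were those of the H4 genes Hist1h4m and Hist1h4n, the H2A genes Hist1h2ao and Hist1h2ap and the linker histones H1f1 and H1f5. The linker histone H1f2 was higher, at 1.15 times the MHCII-lo mean. Of the 25 genes, 16 averaged at least 1 FPKM over the 6 libraries and were tested with limma on log2(FPKM + 1), with Benjamini-Hochberg adjustment over all 12295 genes tested. In MHCII-hi, 1 histone gene (H1f2) was higher, 10 were lower and 5 did not pass an adjusted p of 0.05. Over all genes tested, 27.2% were higher and 40.5% were lower, and the median difference was -0.08 on the log2 scale, so changes in either direction were common. Under median-of-ratios scaling that median was -0.0029 and the calls over all genes were 4090 higher and 4001 lower, in place of 3348 higher and 4982 lower. Among the 9 Hist-symbol genes, 5 were tested, none was higher, 4 were lower and 1 was not past the threshold. Among the 16 H3f3 and H1f genes, 11 were tested, 1 was higher, 6 were lower and 4 were not past the threshold. The median over the 16 tested histone genes was -0.38, which describes the genes that passed the level filter and not the whole set.

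**Figure D1:**
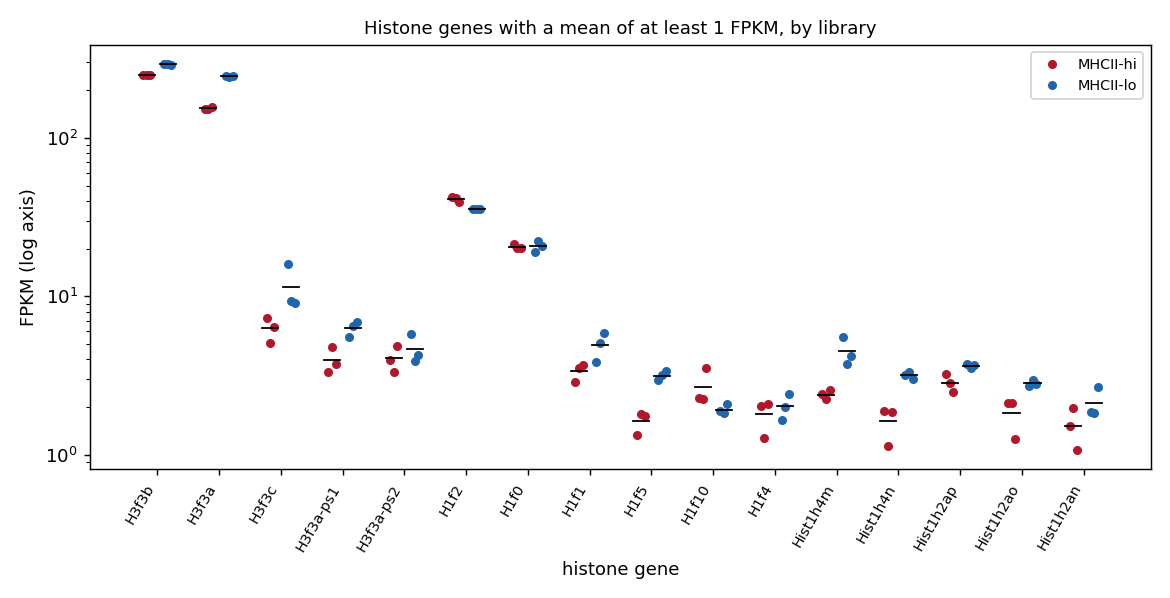
FPKM (log axis) of the 16 histone genes that averaged at least 1 FPKM. Each point is 1 library, MHCII-hi in red and MHCII-lo in blue, and the short black line is the mean of 3 libraries. H3f3a, H3f3b and H1f2 stand in tight, separate groups, with H1f2 alone of these higher in MHCII-hi, and the Hist-symbol genes on the right lie under 6 FPKM.

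The H3.3 genes came first by level. H3f3a and H3f3b encode the same H3.3 protein from separate genes, at chr1:180800832-180813943 and chr11:116021912-116027962 (GRCm38, both on the minus strand). H3f3a had 152.49, 153.07 and 157.51 FPKM in MHCII-hi libraries, against 244.62, 242.33 and 245.61 FPKM in MHCII-lo libraries. The groups lie far apart, with every MHCII-hi library below every MHCII-lo library. The means were 154.4 ± 2.75 FPKM in MHCII-hi and 244.2 ± 1.68 FPKM in MHCII-lo (SD, n = 3 each), a ratio of 0.632. H3f3a fell by 0.66 on the log2(FPKM + 1) scale (SE 0.0175, limma adjusted p = 3.1e-07).

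H3f3b was lower by less. It had 248.39, 250.51 and 249.84 FPKM in MHCII-hi libraries, against 291.76, 292.47 and 289.41 FPKM in MHCII-lo libraries. The libraries of each fraction differed by a few FPKM and the groups do not overlap. The ratio of means was 0.857, and the difference was -0.22 (SE 0.0124, limma adjusted p = 8.33e-06). This size depends on the scaling: it was -0.13 under median-of-ratios scaling, -0.15 after rescaling to the sum without immunoglobulin and mitochondrial genes, and -0.06 once a trend on GC content and transcript length was taken out of each library, with the call kept in each.

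H3f3a gave a smaller part of the H3.3 transcripts in MHCII-hi. It supplied 38.0%, 37.9% and 38.7% of the summed H3f3a and H3f3b FPKM in MHCII-hi libraries and 45.6%, 45.3% and 45.9% in MHCII-lo libraries. These shares do not overlap and do not depend on how a library is scaled. The exact two-sided permutation test gave p = 0.1, the smallest that 3 libraries against 3 allow, and 0.131 after Benjamini-Hochberg adjustment over the 17 library-level values computed. Together the pair summed to 403.9 ± 3.25 FPKM in MHCII-hi and 535.4 ± 0.856 FPKM in MHCII-lo (SD, n = 3 each), which was 80.4% and 82.9% of all FPKM in the 25 genes.

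The promoters of the H3.3 genes differ in their letters. The 150 bases before each RefSeq start (GRCm38.p6, minus strand, read 5′ to 3′ toward the gene) are shown because these genes encode the same protein and fell by different amounts. They are chr1:180813606-180813755 for H3f3a and chr11:116024505-116024654 for H3f3b, and capitals mark matches to the CCAAT box (CCAAT), the TATA box (TATAAA) and the octamer (ATTTGCAT), or to their reverse complements.
H3f3a: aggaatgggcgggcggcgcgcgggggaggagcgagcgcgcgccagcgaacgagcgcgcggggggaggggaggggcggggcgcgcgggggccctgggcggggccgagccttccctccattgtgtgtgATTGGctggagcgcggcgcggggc
H3f3b: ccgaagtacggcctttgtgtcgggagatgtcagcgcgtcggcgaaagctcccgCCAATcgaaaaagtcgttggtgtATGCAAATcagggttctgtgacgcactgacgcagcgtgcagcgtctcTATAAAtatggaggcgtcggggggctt
The H3f3a window holds a reversed CCAAT as its single match. The H3f3b window holds a CCAAT box, a TATA box and a reversed octamer. Of 32851 promoters of the same length searched on both strands, 24.5% hold the CCAAT box, 7.57% the TATA box and 0.998% the octamer. A match describes letters and not a bound site. The GENCODE genes reach further upstream than these windows, to 180813943 for H3f3a and 116027962 for H3f3b. The letters thus describe the RefSeq starts only, and other annotated starts were not searched here.

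Copies of H3f3a were also listed. H3f3c is an intronless copy at chr2:119665626-119666036 (GRCm38), which GENCODE calls a processed pseudogene and RefSeq a protein-coding gene. It had 7.34, 5.11 and 6.39 FPKM in MHCII-hi libraries, against 16.10, 9.34 and 9.11 FPKM in MHCII-lo libraries. All MHCII-hi libraries were lower, and 1 MHCII-lo library stood well above the others of its fraction. The difference was -0.75 (SE 0.219, limma adjusted p = 0.0202), and without MHCII-hi replicate 2 it was -0.63 with adjusted p = 0.063. The call was also lost with no level filter (adjusted p = 0.0559) and with the length and GC trend removed (0.0654). Of the 50-base windows of the H3f3c transcript, 67.7% also occur in H3f3a transcripts, so reads of the parent gene cannot be told apart from reads of the copy over most of its length.

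The pseudogene H3f3a-ps1 on chromosome X had 3.35, 4.80 and 3.74 FPKM in MHCII-hi libraries, against 5.50, 6.49 and 6.92 FPKM in MHCII-lo libraries. The groups do not overlap and the difference was -0.56 (SE 0.121, limma adjusted p = 0.00542), though not past the threshold with the length and GC trend removed (adjusted p = 0.0595). H3f3a-ps2 on chromosome 16 had 3.98, 3.33 and 4.85 FPKM in MHCII-hi libraries, against 5.81, 3.93 and 4.26 FPKM in MHCII-lo libraries. These groups overlap, and the difference of -0.16 (SE 0.152, 0.05 with the length and GC trend removed) did not pass (limma adjusted p = 0.376). The ratio of H3f3a to each copy had a wide spread. H3f3a over H3f3c averaged 25.1 ± 4.61 in MHCII-hi and 22.7 ± 6.52 in MHCII-lo (SD, n = 3 each, exact permutation p = 0.7). H3f3a over H3f3a-ps1 averaged 39.8 ± 7.09 in MHCII-hi and 39.1 ± 4.74 in MHCII-lo (exact permutation p = 0.9). H3f3a over H3f3a-ps2 averaged 38.9 ± 6.77 in MHCII-hi and 53.8 ± 10.3 in MHCII-lo (exact permutation p = 0.2). None of these ratios passed a threshold of 0.05, in a design where the exact permutation test cannot go below p = 0.1. H3f3aos, an antisense gene that overlaps H3f3a on the opposite strand, had 0.23, 0.24 and 0.38 FPKM in MHCII-hi and 0.17, 0.22 and 0.18 FPKM in MHCII-lo, under the level that was tested. The kit keeps strand, but whether the counting used it is not stated, so reads of this overlap may not be told apart.

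**Figure D2:**
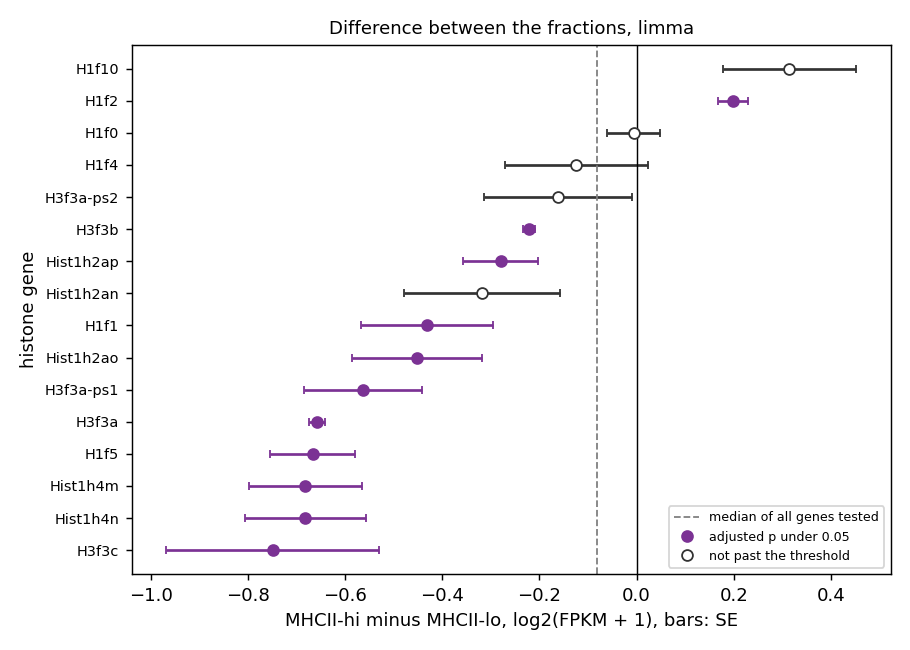
Difference between MHCII-hi and MHCII-lo on the log2(FPKM + 1) scale for the 16 tested histone genes, with SE bars from limma (n = 3 libraries per fraction). Filled points passed an adjusted p of 0.05, open points did not, and the dashed line is the median of all 12295 genes at -0.08. H1f2 is the 1 filled point above 0, and the 10 others lie between -0.22 and -0.75.

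The linker histones differed in makeup, with 1 gene higher and others lower. H1f2, whose older symbol is Hist1h1c and which encodes a widely made H1 subtype, was the most abundant H1 transcript in every library. It lies at chr13:23738808-23740367 (GRCm38, plus strand), inside the large histone cluster. H1f2 had 42.09, 41.42 and 39.14 FPKM in MHCII-hi libraries, against 35.32, 35.43 and 35.70 FPKM in MHCII-lo libraries. Each MHCII-hi library was above each MHCII-lo library. The means were 40.9 ± 1.55 FPKM in MHCII-hi and 35.5 ± 0.196 FPKM in MHCII-lo (SD, n = 3 each), a 1.15-fold difference, and H1f2 rose by 0.20 (SE 0.031, limma adjusted p = 0.00119). The call was kept in every alternative, with differences between 0.18 and 0.29.

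H1f5 and H1f1, linker histones of the same cluster, fell. H1f5 had 1.33, 1.81 and 1.75 FPKM in MHCII-hi libraries, against 2.96, 3.17 and 3.36 FPKM in MHCII-lo libraries, and these do not overlap. The difference was -0.67 (SE 0.0879, limma adjusted p = 0.000522), with a ratio of means of 0.515. H1f1 had 2.89, 3.53 and 3.68 FPKM in MHCII-hi libraries, against 3.86, 5.07 and 5.87 FPKM in MHCII-lo libraries. Its groups lie close to each other, with a difference of -0.43 (SE 0.136, limma adjusted p = 0.0264). The H1f1 call was lost without MHCII-hi replicate 1 (adjusted p = 0.0771), without MHCII-lo replicate 2 (0.0749) or 3 (0.0724), under median-of-ratios scaling (0.0543), with no level filter (0.0696) and with the length and GC trend removed (0.106).

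The other tested linker histones did not pass. H1f0, the replacement H1 that gathers in non-dividing and differentiated cells, had 21.24, 20.26 and 20.21 FPKM in MHCII-hi libraries, against 19.10, 22.21 and 20.78 FPKM in MHCII-lo libraries. The groups overlap fully and the difference was -0.01 (SE 0.0547, limma adjusted p = 0.927), with a sign that changed between alternatives. H1f10 lies outside the clusters and had 2.28, 2.24 and 3.55 FPKM in MHCII-hi libraries, against 1.88, 1.83 and 2.08 FPKM in MHCII-lo libraries. The difference was 0.32 (SE 0.137, limma adjusted p = 0.0795). The groups do not overlap, and 1 MHCII-hi library stood above the other two. It passed under median-of-ratios scaling (adjusted p = 0.0455) and with the length and GC trend removed (0.038). Without MHCII-hi replicate 3, the library at 3.55 FPKM, the difference was 0.16 (adjusted p = 0.0956). H1f4, a clustered H1, had 2.03, 1.27 and 2.09 FPKM in MHCII-hi libraries, against 1.67, 2.01 and 2.42 FPKM in MHCII-lo libraries. Its groups overlap (-0.12, SE 0.147, limma adjusted p = 0.483), and 23.8% of its 50-base windows also lie in the transcript of the overlapping gene H2bc6, so their reads cannot be told apart there. H1f3, a clustered H1, averaged 0.540 FPKM in MHCII-hi and 0.553 FPKM in MHCII-lo, and the testis H1f6, the oocyte H1f8 and the pseudogene H1f11-ps were at 0.14 FPKM or less in every library.

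**Figure D3:**
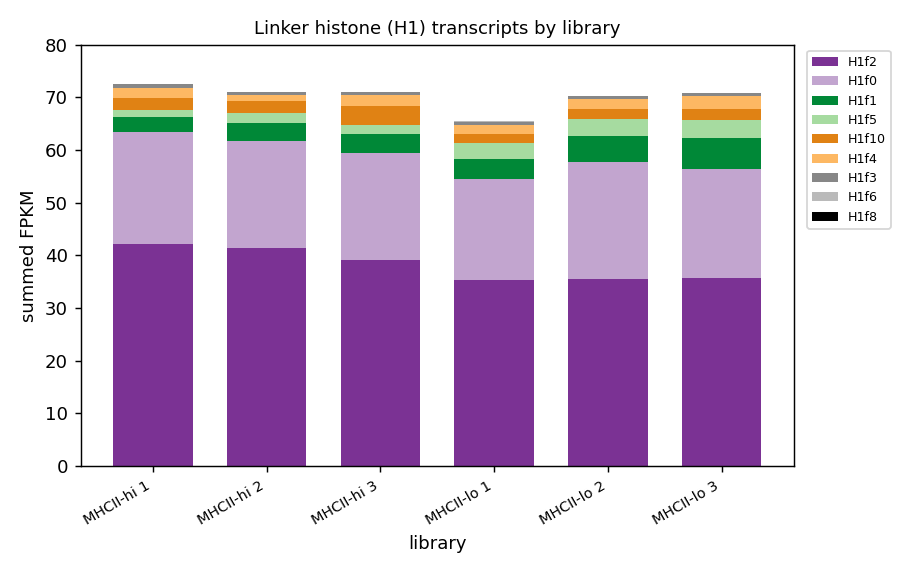
Summed FPKM of the 9 linker histone (H1) genes in each library, stacked by gene, with the 3 MHCII-hi libraries left of the 3 MHCII-lo libraries. The totals lie between 65.5 and 72.5 FPKM, while the H1f2 block at the foot is taller, and the green H1f1 and H1f5 blocks shorter, in MHCII-hi.

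Summed over the 9 H1 genes the level was 72.5, 71.0 and 71.0 FPKM in MHCII-hi libraries and 65.5, 70.3 and 70.9 FPKM in MHCII-lo libraries. The totals are close, with 2 MHCII-lo libraries just under the MHCII-hi ones and 1 further below. H1f2 supplied 57.2 ± 1.79% in MHCII-hi and 51.6 ± 2.04% in MHCII-lo, and H1f1 with H1f5 supplied 6.997 ± 1.02% in MHCII-hi and 11.7 ± 1.31% in MHCII-lo (SD, n = 3 each). H1f0 supplied 28.8 ± 0.475% in MHCII-hi and 30.03 ± 1.36% in MHCII-lo. By location, H1f1 to H1f6 are counted with the Hist symbols and Hist1h2al, which lies outside the cluster, is left out. H3f3a-ps1, H3f3a-ps2, H3f3aos and H1f11-ps are left out as well. Then 9 of 14 clustered genes were tested, with 1 higher and 6 lower. For the replacement genes 5 of 6 were tested, with 3 lower and none higher at an adjusted or unadjusted p of 0.05. Over all genes tested by limma, 27.2% were higher and 40.5% were lower.

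The promoters of H1f2, H1f5 and H1f1 are shown because these linker histone genes of 1 cluster moved in opposite directions. The windows are the 150 bases before the RefSeq starts (GRCm38.p6, each read 5′ to 3′ toward its gene), at chr13:23738657-23738806 on the plus strand for H1f2, chr13:21780626-21780775 on the minus strand for H1f5 and chr13:23763518-23763667 on the plus strand for H1f1. Capitals mark AAACACA (the H1 box, an element known from H1 promoters), the CCAAT box and the TATA box, or their reverse complements.
H1f2: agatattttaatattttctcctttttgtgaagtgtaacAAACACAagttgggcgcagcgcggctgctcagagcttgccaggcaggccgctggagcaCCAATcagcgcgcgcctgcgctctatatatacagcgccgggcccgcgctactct
H1f5: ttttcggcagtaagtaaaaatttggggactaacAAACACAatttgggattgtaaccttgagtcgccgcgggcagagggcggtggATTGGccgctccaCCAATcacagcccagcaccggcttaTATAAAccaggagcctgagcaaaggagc
H1f1: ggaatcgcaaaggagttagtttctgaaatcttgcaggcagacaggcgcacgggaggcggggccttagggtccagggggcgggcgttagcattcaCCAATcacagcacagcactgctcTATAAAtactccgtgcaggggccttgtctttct
AAACACA, which 3.53% of the 32851 promoters hold on either strand, occurs in H1f2 and H1f5 and not in this window of H1f1. It also occurs in the windows of H1f4, which did not pass, and of H1f3 and H1f6, which were not tested. The CCAAT box occurs in the windows of all 3 genes shown, and the exact letters TATAAA in those of H1f5 and H1f1. The H1f2 window reads tatatata instead, a TATA-like stretch that the search did not mark, so it is not shown to lack a TATA box. As above, a match describes letters only.

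The Hist-symbol genes were low in these poly(A) libraries, the highest library value being 5.52 FPKM. Summed over the 9 they reached 13.9, 12.2 and 11.2 FPKM in MHCII-hi libraries, against 19.9, 17.7 and 19.0 FPKM in MHCII-lo libraries, so every MHCII-hi library was lower (ratio of means 0.659). The 16 H3f3 and H1f genes summed to 490.0 ± 3.20 FPKM in MHCII-hi and 627.0 ± 2.26 FPKM in MHCII-lo (SD, n = 3 each), a ratio of 0.782. All 25 together were 0.151% of library FPKM in MHCII-hi and 0.211% in MHCII-lo.

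Hist1h4m and Hist1h4n encode histone H4 from chromosome 13. Hist1h4m had 2.41, 2.24 and 2.55 FPKM in MHCII-hi libraries, against 5.52, 3.75 and 4.23 FPKM in MHCII-lo libraries. Hist1h4n had 1.90, 1.14 and 1.85 FPKM in MHCII-hi libraries, against 3.21, 3.34 and 3.0 FPKM in MHCII-lo libraries. For both genes each MHCII-hi library lay below each MHCII-lo library. Both differences were -0.68, with SE 0.117 and limma adjusted p = 0.00186 for Hist1h4m and SE 0.124 and limma adjusted p = 0.00243 for Hist1h4n. The transcripts share most of their letters, 89.8% of the 50-base windows of Hist1h4m being found in Hist1h4n, so they are not independent measurements.

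The H2A genes Hist1h2ao, Hist1h2ap and Hist1h2an had smaller differences by value. Hist1h2ap had 3.23, 2.84 and 2.48 FPKM in MHCII-hi libraries, against 3.74, 3.54 and 3.70 FPKM in MHCII-lo libraries (difference -0.28, SE 0.0772, limma adjusted p = 0.0158). Hist1h2ao had 2.11, 2.11 and 1.25 FPKM in MHCII-hi libraries, against 2.70, 2.98 and 2.78 FPKM in MHCII-lo libraries (difference -0.45, SE 0.133, limma adjusted p = 0.0204). Both had separate groups, but 93.5% of the Hist1h2ao windows also lie in Hist1h2ap. The Hist1h2ao call was lost without MHCII-lo replicate 2 (adjusted p = 0.0644) or 3 (0.0515) and with no level filter (0.0586). Without MHCII-hi replicate 3, at 1.25 FPKM, its difference was -0.30 (adjusted p = 0.00755). The Hist1h2ap call was lost with the length and GC trend removed (0.0567). Hist1h2an had 1.51, 1.97 and 1.07 FPKM in MHCII-hi libraries, against 1.85, 1.84 and 2.69 FPKM in MHCII-lo libraries. Its groups overlap (-0.32, SE 0.161, limma adjusted p = 0.122), and it passed only without MHCII-hi replicate 2 (adjusted p = 0.0464).

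The H2B genes lay just under the level filter of 1 FPKM and were not tested. Hist1h2br averaged 0.857 FPKM in MHCII-hi and 0.863 FPKM in MHCII-lo. Hist1h2bq averaged 0.797 FPKM in MHCII-hi and 0.817 FPKM in MHCII-lo, and Hist1h2bp averaged 0.553 FPKM in MHCII-hi and 0.877 FPKM in MHCII-lo. Hist1h2bq and Hist1h2br share 97.3% and 88.7% of their windows with each other and had nearly equal values. Hist1h2al, a processed pseudogene on chromosome 13 outside the cluster, was listed at 0 in every library.

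The stem-loop that ends clustered histone mRNA is shown where the annotated transcript holds it, since it bears on how a poly(A) library sees these genes. The letters searched were GG, then 2 free bases, then CTTTT, 1 free base, then AG, 2 free bases and CC, on the sense strand of GENCODE M21 transcripts (GRCm38), and 72 of 21901 protein-coding genes hold them (0.329%). Capitals mark the 16 bases of the match, with up to 5 bases on each side.
H1f2: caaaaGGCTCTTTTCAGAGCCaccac
H1f4: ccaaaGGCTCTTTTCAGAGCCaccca
H1f6: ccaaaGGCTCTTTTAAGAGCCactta
Hist1h2ap: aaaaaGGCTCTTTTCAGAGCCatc
Hist1h2bp: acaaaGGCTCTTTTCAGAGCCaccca
Hist1h4m: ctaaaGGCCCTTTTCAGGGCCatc
In the H1, H2A and H2B genes shown the left arm of the stem reads GGCTCT, and in the H4 gene it reads GGCCCT. In Hist1h4m and Hist1h2ap the annotated transcript ends 3 bases after the stem-loop. In Hist1h2bp 1 of 2 annotated transcripts holds the stem-loop and ends 38 bases after it. In H1f2 the stem-loop is at chr13:23739512-23739527 on the plus strand, and the annotated transcript runs 840 bases past it to an end with AATAAA, the poly(A) signal, in its last 40 bases. H1f2, at 40.9 FPKM in MHCII-hi and 35.5 FPKM in MHCII-lo, was the one gene of the cluster among the 25 above 6 FPKM in any library. The H1f6 transcript also runs on, by 185 bases, to an end with AATAAA, and was at 0.14 FPKM or less in every library. Those of H1f4 and H1f3 run 1153 and 4884 bases past the stem-loop, without AATAAA in the last 40. They averaged 1.915 and 0.547 FPKM over the 6 libraries. The part of the transcript end in these levels was not tested. The match also occurs in H1f3, Hist1h2ao and Hist1h4n, 9 of the 25 genes in all, and not in the annotated transcripts of H1f1, H1f5 or Hist1h2an, which are 741, 743 and 393 bases long. Hist1h2bq and Hist1h2br lack it too, and their longest annotated transcripts have 3 exons and 2015 and 2197 bases.

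**Figure D4:**
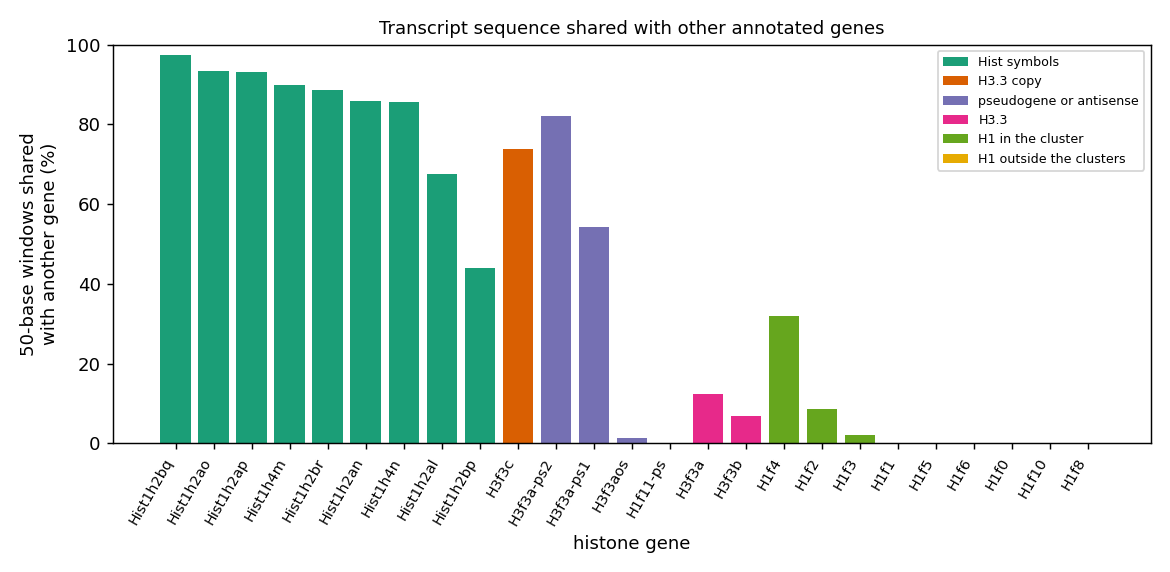
Percent of the 50-base windows of each histone gene's annotated transcripts that also occur in another annotated gene, with bars coloured by class of gene. The Hist-symbol genes share 44.1% to 97.3%, H3f3a 12.3%, H3f3b 6.86%, H1f2 8.54%, and H1f0, H1f1, H1f5 and H1f10 share none.

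H3f3a, H3f3b and H1f2 share 12.3%, 6.86% and 8.54% of their windows with other genes, and H1f5 shares none. The sources used here do not say how the authors' counting divided reads that match several genes. The values of single Hist-symbol genes and of the H3f3a copies are therefore uncertain. The median difference was not the same at each transcript length, with immunoglobulin segments left out. It was -0.20 for tested genes with a transcript of at most 500 bases, which include the 5 tested Hist-symbol genes, and -0.15 at 500 to 600 bases. At 600 to 800 bases, which include H1f1 and H1f5, it was -0.28. From there it rose steadily with length, to -0.24 at 800 to 1000 bases and -0.19 at 1000 to 2000 bases. It was -0.10 at 2000 to 4000 bases and -3e-04 over 4000 bases. The share of genes higher rose from 13% at up to 500 bases to 34.5% over 4000 bases. Of the genes of at most 500 bases 36.5% were lower, and of those of 600 to 800 bases 52.8%, beside 40.5% over all genes. The part of transcript length in the result was not tested.

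The 71 histone rows under newer symbols hold the rest of the family. Of these 43 were tested, none was higher, 20 were lower and 23 were not past the threshold, with 27.2% higher and 40.5% lower over all genes. The counts of 0 higher by limma, here, among the Hist symbols and among the DNA synthesis genes below, were also 0 at an unadjusted p of 0.05. H2az1, the replacement H2A.Z, had 192.44, 188.10 and 190.90 FPKM in MHCII-hi libraries, against 353.62, 353.16 and 356.22 FPKM in MHCII-lo libraries. It fell by 0.89 (SE 0.0142, limma adjusted p = 4e-08), more than H3f3a or H3f3b by value. H2ax, the H2A form that is phosphorylated at DNA breaks, had 79.89, 80.72 and 77.65 FPKM in MHCII-hi libraries, against 78.24, 82.04 and 81.03 FPKM in MHCII-lo libraries, and its groups overlap (-0.02, SE 0.0256, limma adjusted p = 0.557). Among the 34 tested core genes of the clusters, 4 of 11 H2ac, 4 of 9 H2bc, 3 of 9 H3c and 4 of 5 H4c genes were lower. H4c9 had 7.003 ± 0.705 FPKM in MHCII-hi and 15.6 ± 0.816 FPKM in MHCII-lo (SD, n = 3 each), a difference of -1.05 (SE 0.0723, limma adjusted p = 2.12e-05). The 47 core genes summed to 83.7 ± 3.88 FPKM in MHCII-hi and 121.6 ± 4.36 FPKM in MHCII-lo, a ratio of 0.688 beside 0.659 for the Hist symbols. The 2 sets share sequence, for example 80.5% of the Hist1h2an windows with H2ac12, so the sums are not independent measurements. The newer symbols were grouped after the tables were seen.

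Genes that make and handle histones were read from lists of known factors. Of 23 tested genes for transcription and processing of histone mRNA, 4 (Npat, Tut7, Hnrnpul1, Upf1) were higher, 13 were lower and 6 did not pass, with a median of -0.15, beside 27.2% higher, 40.5% lower and a median of -0.08 over all genes tested. Slbp, the stem-loop binding protein, had 21.53, 21.03 and 20.98 FPKM in MHCII-hi libraries, against 29.63, 29.34 and 30.73 FPKM in MHCII-lo libraries. The groups do not overlap, and Slbp fell by 0.48 on the log2 scale (SE 0.0278, limma adjusted p = 9.83e-06). Ncbp2, a cap-binding protein, averaged 14.9 ± 0.289 FPKM in MHCII-hi and 24.4 ± 0.872 FPKM in MHCII-lo (difference -0.67). Ccne1, the cyclin E that drives S phase entry, averaged 10.6 ± 0.187 FPKM in MHCII-hi and 15.9 ± 0.668 FPKM in MHCII-lo (difference -0.54). Eri1, a nuclease that trims histone mRNA ends, averaged 8.15 ± 0.105 FPKM in MHCII-hi and 11.9 ± 0.297 FPKM in MHCII-lo (difference -0.50). Npat, among the 4 that rose, is the coactivator of the clustered histone genes.

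Of 34 tested histone chaperones and exchange factors, 6 were higher, 21 were lower and 7 did not pass, with a median of -0.31, beside 27.2% higher, 40.5% lower and a median of -0.08 over all genes tested. Srcap, the motor of a complex that loads H2A.Z, averaged 9.03 ± 0.432 FPKM in MHCII-hi and 2.93 ± 1.13 FPKM in MHCII-lo (difference 1.39, limma adjusted p = 0.000686). Hat1, which acetylates new H4, averaged 23.3 ± 0.624 FPKM in MHCII-hi and 46.9 ± 0.510 FPKM in MHCII-lo (difference -0.98, limma adjusted p = 3.48e-07). Hira, which places H3.3 outside replication, and Chaf1a and Chaf1b, which place new H3 during replication, were all among the genes that fell, and Atrx, a further H3.3 factor, was among those that rose. Rbbp4 (difference -0.76) and Nasp (difference -0.67), carriers of H3 and H4, fell as well.

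Of 43 tested DNA synthesis genes, none was higher, 38 were lower and 5 did not pass, with a median of -0.49, beside 27.2% higher, 40.5% lower and a median of -0.08 over all genes tested. Slbp and Ccne2, both lower, are counted here and in the histone mRNA list, so the lists overlap. Dut, which clears dUTP, averaged 21.1 ± 0.921 FPKM in MHCII-hi and 48.5 ± 1.47 FPKM in MHCII-lo (difference -1.16, limma adjusted p = 8.03e-07). Rfc4 (difference -1.09), Rpa3 (-1.03) and Gins1 (-0.97), parts of the replication machinery, had the next largest differences. The part of S phase activity in the histone differences was not tested.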

How the data were processed

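RNA of the sorted MHCII-hi and MHCII-lo cells was made into stranded mRNA libraries with a poly(A)-selecting kit, per the labels' protocols. Per the submitters' processing notes, the builds were GRCm38 and mm10 and the tools StringTie, HISAT2 and fastp, without versions or settings. The deposited values, 1 per gene and library, were read as FPKM from the values themselves, since the file headers give no unit. FPKM is relative to library size, so abundant transcripts in 1 fraction lower all other values in it, and with no counts no depth or counting interval is given.

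Genes averaging at least 1 FPKM (12295) were compared on log2(FPKM + 1) in limma 3.58.1 under R 4.3.3 (two-sided, with an empirical Bayes trend; threshold an adjusted p of 0.05 by Benjamini-Hochberg). This scale understates changes of low genes, and ratios are of mean FPKM. Values are means ± SD of 3 libraries. The fit was tested on simulated data. GENCODE M21 and RefSeq (GRCm38.p6) gave annotation and sequence, and all 25 members matched. The plan was to name every member averaging 1 FPKM, with the 3 nearest below it, and the lower members were then named too. Slbp and the 4 largest called changes of each context list were named as well. H2az1, H2ax, H4c9 and other named context genes were chosen after their values were seen. Members and lists were chosen with earlier results of these data known. Alternatives changed the pseudocount, filter, scaling, trend, replicate block, length and GC correction and the libraries kept.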

Additional observations from a re-analysis of the deposited data

How the results depend on the processing

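H3f3a, H3f3b and H1f2 kept direction and call in every alternative, and H1f5, Hist1h4m and Hist1h4n in every alternative that tested them. Over single genes and alternatives, 203 results kept direction and side of the threshold, 14 lost the call, 4 gained it and 9 changed sign. The sign changes were H1f0 at 0.027 (quantile normalization), 0.085 (median-of-ratios), 0.065 (sum without immunoglobulin and mitochondrial genes), 0.072 (length and GC trend removed) and, with a library left out, -0.06 to 0.044 (above 0 without MHCII-hi replicate 2, at 0.004, MHCII-hi replicate 3, at 0.006, and MHCII-lo replicate 2), H3f3a-ps2 at 0.048 (length and GC) and H1f4 at 0.02 without MHCII-hi replicate 2 (-0.212 to 0.02 over left-out libraries). A filter at a mean of 5 FPKM left 2210 genes higher in place of 3348, 5 of 6 histone genes called in place of 11 of 16, 6 of 9 newer-symbol genes in place of 20 of 43, and no Hist-symbol gene to test, since fewer genes pass it. H1f10 made 2 H3f3 and H1f genes higher under median-of-ratios scaling, the length and GC correction and the replicate block. The length and GC correction left 3 H3f3 and H1f genes lower in place of 6, and the cause was not tested. Counted by location, 7 clustered and 3 replacement genes were called, in place of 4 and 7, by construction. H3f3a-ps1, called lower, is among the genes that the count by location leaves out. Left-out libraries gave 3 to 5 Hist-symbol genes, 6 to 7 H3f3 and H1f genes and 9 to 11 histone genes called. The summed FPKM difference of the H3f3 and H1f genes was -137.0 and, under median-of-ratios scaling, -99.8. Same-numbered libraries of the fractions deviated together by r = 0.063, 0.002 and 0.08, against -0.095 to 0.025 for differently numbered ones. Since the variation may be technical, such small values cannot settle whether the numbers pair the libraries. With the replicate block 12 histone genes were called in place of 11. With 3 libraries per fraction and unknown depth, values near 1 FPKM are the least certain.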
